A study of Mus musculus with 6 samples.

Results

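The genes studied here mark or drive the epithelial-mesenchymal transition (EMT), and 10 of them were read in all 6 RNA sequencing libraries of mouse 427.1.86 thymoma cells (427 cells). They were Cdh1, Cdh2, Epcam, Vim, Fn1, Snai1, Snai2, Zeb1, Zeb2 and Twist1, that is 10 of the 21207 gene symbols in the files. Each symbol stood on 1 annotated row, so that no choice between rows was needed. The values are FPKM, fragments per kilobase of exon scaled to the size of the library. Because they are given per length, genes can be set beside each other within a library. Between libraries the values also depend on how each library is scaled, so the ratios were repeated under other scalings. All 6 libraries came from the same cell line at passage 4 to 10, and each condition had 1 library. Of these, 2 were from wild type 427 cells that stably carry the empty pSUPER vector, deprived of serum for 2 h and then given DMSO or 1 µM PMA, a phorbol ester that activates protein kinase C and induces shedding of membrane proteins, for 2 h. Another 2 were from cells labelled SPPL2b knockdown (SP2bKD) and given DMSO or PMA in the same way. The last 2 were from SP2bKD cells transfected with a GFP vector alone or with GFP vector and Flag-EICD (N55) and sorted for GFP. EICD is the intracellular domain of the membrane serine protease epithin/PRSS14, and SPPL2b is an intramembrane protease. The labels give an siRNA for the knockdown, whereas the methods of the study describe a stable shRNA in single-cell clones and name clone SP2bKD-10 for the sorted cells. A line that is 1 clone can differ from its parent in more than the targeted gene.

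In EMT, epithelial cells lose their cell-cell junctions and gain a motile, mesenchymal form. E-cadherin (Cdh1) and EpCAM (Epcam) hold epithelial cells together, whereas N-cadherin (Cdh2), the intermediate filament protein vimentin (Vim) and the matrix glycoprotein fibronectin (Fn1) are the usual markers of the mesenchymal state. Snail (Snai1), Slug (Snai2) and the ZEB factors (Zeb1, Zeb2) are zinc finger repressors that bind E-box sequences in the Cdh1 promoter and in other epithelial genes, and Twist1 is a basic helix-loop-helix factor. In the thymus the epithelial cells form the stroma on which lymphocytes mature, and E-cadherin and EpCAM are surface markers of that stroma.

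Promoter windows were shown for the genes whose upstream sequence holds a motif tied to these factors or to PMA. RefSeq sequences on GRCm38.p6 were at hand for 5 of the 10 genes, in 8 windows of 250 bases before a transcription start. No window was at hand for Cdh1, Cdh2, Fn1, Snai2 and Zeb1, so their promoters were not searched. The motifs searched on both strands were the E-box CACCTG, which Snail and ZEB proteins bind, and the AP-1 site TGAGTCA, which Fos and Jun proteins bind. They do not overlap each other. The 250 bases before the start of Epcam (chr17:87635729-87635978, plus strand) held 2 E-boxes, which begin at positions -187 and -19 from it. The window of Snai1 (chr2:167537945-167538194, plus strand) held 1, which begins at position -126. Among all 32851 promoter windows of this length 17.2% held at least 1 such E-box and 2.06% held 2 or more. Of the 4 windows of Zeb2, 1 held the AP-1 site, at positions -189 and -132 from its start, and the stretches of 29 bases around both matches are given on the minus strand (chr2:45110449-45110477 and chr2:45110392-45110420). The AP-1 site stood in 4.46% of all windows, and 0.167% held it 2 or more times. These shares are per window and not per gene, and Zeb2 had 4 windows. The window with both sites precedes a start at 45110277, which lies inside the annotated gene (upstream end at 45117395). Neither motif was found in the windows of Vim and Twist1. Capitals mark the motif, or its reverse complement.
Epcam: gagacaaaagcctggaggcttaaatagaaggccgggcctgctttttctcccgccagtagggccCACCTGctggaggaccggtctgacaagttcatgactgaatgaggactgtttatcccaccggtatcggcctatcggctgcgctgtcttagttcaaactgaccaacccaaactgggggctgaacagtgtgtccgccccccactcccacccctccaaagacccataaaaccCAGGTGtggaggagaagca
Snai1: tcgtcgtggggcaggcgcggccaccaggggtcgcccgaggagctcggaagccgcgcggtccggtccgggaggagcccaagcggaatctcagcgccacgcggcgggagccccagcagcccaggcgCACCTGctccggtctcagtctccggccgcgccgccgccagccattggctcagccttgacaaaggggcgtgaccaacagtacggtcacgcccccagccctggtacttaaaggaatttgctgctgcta
Zeb2, first AP-1 site: ccgcctagcctTGAGTCAagcagtcttac
Zeb2, second AP-1 site: gtcaggagttaTGACTCAttttgaagatg

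The depth, estimated from the FPKM steps, was about 25000000 to 29000000 fragments per library. Only loci whose implied depth lay in a preset range entered this estimate, so it could not show a depth outside that range. The estimated fragments and counting intervals below depend on it. From 9679 to 9973 symbols reached an FPKM of 1, and 85.6% to 94.2% of the FPKM sum came from the 10 largest loci. Sppl2b, the gene targeted in the SP2bKD cells, did not have a lower FPKM in the libraries labelled SP2bKD than in 427 cells (9.90 and 13.4 with DMSO, 6.86 and 9.37 with PMA, for 427 and SP2bKD respectively), and it overlaps Lsm7. The direction of the FPKM therefore goes against the label, and these libraries are named as labelled throughout. The study itself tested its knockdown clones for SPPL2b mRNA by qPCR. It also reported decreased EICD generation with PMA in them, which FPKM does not measure. St14, the epithin/PRSS14 gene that shares its sequence with the construct, stood at 69.6 FPKM with GFP and at 615 with GFP plus EICD. Of 9 thymic epithelial markers 8 were read, and 5 (Krt14, Krt8, Krt18, Foxn1 and Ly75) had an FPKM of 1 or more in every library. The FPKM summed over the 8 was 1946 to 4053, and most of it was Krt14 (1355 to 3820). Krt19 (at most 0.657) and Psmb11 (at most 0.0270) stayed under 1, and Aire was listed at 0. Krt5 stood on a newly assembled locus (3851 to 10705) and was not in the sum. The summed FPKM was 0.0304 to 0.340 for 8 thymocyte and T cell markers, 0.185 to 0.594 for 6 fibroblast markers, 0.0593 to 0.431 for 5 endothelial markers and 7.01 to 12.2 for 4 macrophage markers (Cd68, Csf1r and Cd14 at 1 or more, Lyz2 at most 0.134). Among the markers of other cells, Cd3d, Cd3e, Cd4, Thy1 and Lum were listed at 0 in all 6 libraries. In bulk RNA, fewer cells that express a gene and less RNA of it per cell cannot be told apart.

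Those of the 10 genes with a value spread over more than 3 orders of magnitude, with both epithelial genes and Fn1 at the top, the Snail and ZEB factors in the middle and Vim, Cdh2 and Twist1 at the bottom, except that Vim (1.64) stood above Snai1 (0.797) in SP2bKD cells with PMA. The 5 genes Cdh1, Epcam, Fn1, Snai2 and Zeb2 had an FPKM of 1 or more in all 6 libraries, 3 (Vim, Snai1 and Zeb1) in some of them, and 2 (Cdh2 and Twist1) in none. The cells thus contained RNA of epithelial adhesion genes and of fibronectin at high levels together, and RNA of 4 EMT repressors at lower levels.

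Cdh1 (ENSMUSG00000000303, chromosome 8, 106603351 to 106670246 on GRCm38, plus strand) encodes the adherens junction protein of epithelia. Its FPKM was 123 and 231 in 427 cells with DMSO and PMA, 141 and 236 in SP2bKD cells with DMSO and PMA, 147 with GFP and 156 with GFP plus EICD. Both PMA libraries were above the other 4, which lay within 123 to 156. Epcam (ENSMUSG00000045394, chromosome 17, 87635979 to 87651106, plus strand) encodes a homotypic adhesion protein of epithelial surfaces. Its FPKM was 169 and 299 in 427 cells with DMSO and PMA, 209 and 322 in SP2bKD cells with DMSO and PMA, 153 with GFP and 140 with GFP plus EICD. The PMA libraries were again the highest, and the sorted cells were the lowest.

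Fn1 (ENSMUSG00000026193, chromosome 1, 71585520 to 71653200, minus strand) had the highest level of the 10 genes in every library. Its FPKM was 494 and 595 in 427 cells with DMSO and PMA, 360 and 431 in SP2bKD cells with DMSO and PMA, 232 with GFP and 252 with GFP plus EICD. The order followed the cells, with both 427 libraries above both unsorted SP2bKD libraries and the sorted libraries below them. Vim (ENSMUSG00000026728, chromosome 2, 13573825 to 13582826, plus strand) stood at the other end. Its FPKM was 0.292 and 0.365 in 427 cells with DMSO and PMA, 1.04 and 1.64 in SP2bKD cells with DMSO and PMA, 0.553 with GFP and 0.263 with GFP plus EICD. Only the unsorted SP2bKD libraries reached an FPKM of 1, and even there the FPKM of Epcam was 200.5 and 197 times that of Vim. Cdh2 (ENSMUSG00000024304, chromosome 18, minus strand) had an FPKM of 0.113 and 0.0481 in 427 cells with DMSO and PMA, 0.448 and 0.126 in SP2bKD cells with DMSO and PMA, 0.268 with GFP and 0.204 with GFP plus EICD. These amount to an estimated 6.29 to 55.9 fragments per library, so its ratios are imprecise. The FPKM of Cdh1 was between 314 times (SP2bKD, DMSO) and 4798 times (427, PMA) that of Cdh2.

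Snai2 (ENSMUSG00000022676, chromosome 16, 14705852 to 14709395, plus strand) was the most abundant of the 5 transcription factors in every library. Its FPKM was 15.2 and 13.4 in 427 cells with DMSO and PMA, 11.7 and 12.0 in SP2bKD cells with DMSO and PMA, 23.3 with GFP and 34.7 with GFP plus EICD. The sorted libraries were above all 4 unsorted ones. Snai1 (ENSMUSG00000042821, chromosome 2, 167538195 to 167542814, plus strand) had an FPKM of 1.61 and 0.981 in 427 cells with DMSO and PMA, 1.25 and 0.797 in SP2bKD cells with DMSO and PMA, 0.569 with GFP and 0.835 with GFP plus EICD. It was highest in the DMSO libraries and rested on an estimated 23.3 to 69.8 fragments.

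Zeb2 (ENSMUSG00000026872, chromosome 2, 44983632 to 45117395, minus strand) had an FPKM of 2.70 and 5.63 in 427 cells with DMSO and PMA, 2.99 and 5.49 in SP2bKD cells with DMSO and PMA, 2.59 with GFP and 4.11 with GFP plus EICD. The PMA libraries were the highest and the GFP plus EICD library followed. Zeb1 (ENSMUSG00000024238, chromosome 18, plus strand) had an FPKM of 1.02 and 1.54 in 427 cells with DMSO and PMA, 1.99 and 2.56 in SP2bKD cells with DMSO and PMA, 1.16 with GFP and 0.430 with GFP plus EICD. The unsorted SP2bKD libraries were thus the highest for Zeb1 and the GFP plus EICD library the lowest. The library kit does not mark strand, and the annotated exons of Zeb2 share 653 bases with the antisense gene Zeb2os, those of Fn1 share 292 bases with Apol7d and those of Zeb1 share 198 bases with Gm10125, so reads of these overlaps cannot be assigned to 1 gene. Twist1 (ENSMUSG00000035799, chromosome 12) was listed at 0 in all 6 libraries and has no ratio.

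**Figure D1:**
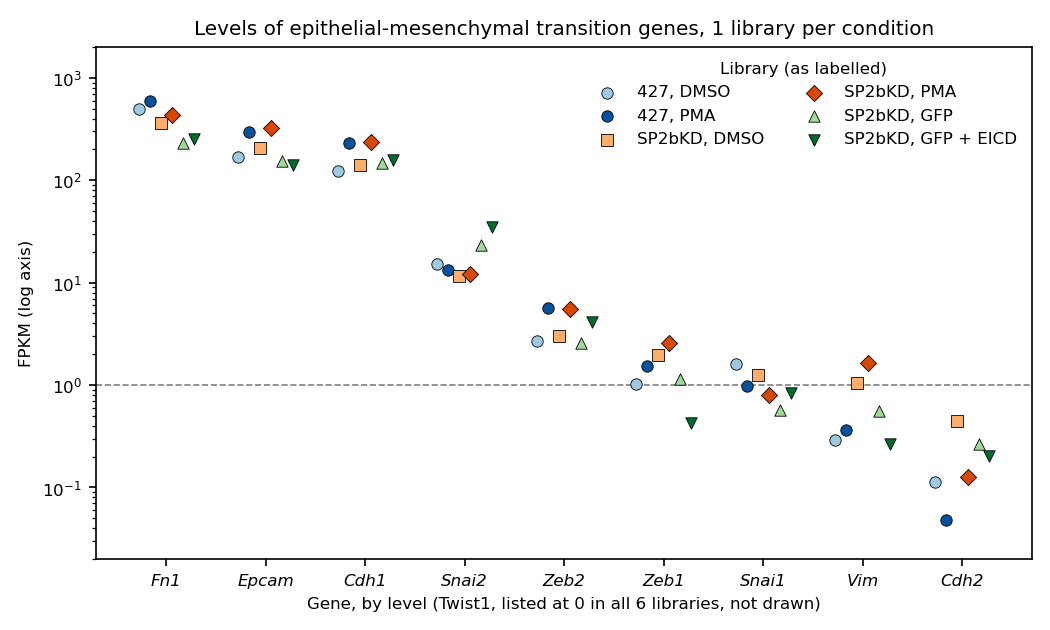
Levels of 9 genes in each library, in FPKM on a log axis; each point is 1 library, genes are ordered by level, and the dashed line is an FPKM of 1. Fn1, Epcam and Cdh1 lie above 100 in all 6 libraries, Snai2 between 11.7 and 34.7, and Cdh2 below 1 throughout.

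To examine the effect of PMA on these genes, the PMA and DMSO libraries were compared within each line, with log2 ratios after 0.01 was added to both FPKM values. A gene was counted as changed when the ratio exceeded 2-fold and the higher of both FPKM values was 1 or more. With 1 library per condition no p-value was computed, and each ratio compares 2 libraries. In 427 cells 7 of the 10 genes reached that FPKM, of which 1 rose and none fell, against 3.79% of 9978 genes that rose and 4.61% that fell. The gene that rose was Zeb2, from 2.70 to 5.63, a log2 ratio of 1.06. Cdh1 and Epcam had log2 ratios of 0.91 and 0.82, short of 2-fold but above those of 95.7% and 95.04% of the genes tested. The median log2 ratio was 0.59 for the 7 genes and -0.11 for all genes tested.

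In SP2bKD cells 8 of the genes reached the minimum, and none rose or fell beyond 2-fold, against 3.4% of 9944 genes that rose and 5.52% that fell. The log2 ratios were 0.88 for Zeb2, 0.75 for Cdh1, 0.63 for Epcam and 0.65 for Vim. The median was 0.49 for the 8 genes and -0.15 for all genes tested. Fn1 had log2 ratios of 0.27 in 427 and 0.26 in SP2bKD cells, and Zeb1 had 0.59 and 0.36. The repressor Snai1 had negative ratios in both lines, -0.71 and -0.64. Cdh2, with an FPKM under 1 in all 4 libraries, had -1.09 and -1.76. Cdh1, Epcam and Zeb2, 2 junction genes and a repressor of junction genes, thus had positive ratios together in both lines, and Snai1 did not follow Zeb2. The line difference of the PMA effect, SP2bKD minus 427, was -0.16 for Cdh1, -0.19 for Epcam, -0.01 for Fn1, -0.22 for Zeb1, -0.18 for Zeb2 and -0.67 for Cdh2, and 0.34 for Vim, 0.07 for Snai1 and 0.23 for Snai2. It was not tested, for want of replicates. The call of Zeb2 in 427 cells was lost when 1 was added to both FPKM values (log2 ratio 0.84) and when each library was scaled to the same FPKM sum (0.78), and Cdh1 passed 2-fold when libraries were scaled by the median of ratios (1.01).

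To see how the lines differed without and with PMA, the libraries labelled SP2bKD were compared with those of 427 cells. With DMSO 8 genes reached the minimum, and Vim rose, from 0.292 to 1.04, a log2 ratio of 1.80, whereas none fell, against 2.87% of 10013 genes that rose and 2.52% that fell. With PMA 7 genes reached it, and Vim rose again, from 0.365 to 1.64, a log2 ratio of 2.14, against 2.02% of 9862 genes, whereas none fell, against 2.51%. These ratios of Vim rest on an estimated 17.1 and 58.9 fragments with DMSO and 21.6 and 102 with PMA. The 95% intervals for counting error alone were 1.05 to 2.72 and 1.46 to 2.87. Vim reached the minimum in the SP2bKD libraries only, which favours a positive ratio among the genes tested. Zeb1 came next among the genes at the minimum, with log2 ratios of 0.95 with DMSO and 0.73 with PMA. Cdh2, below the minimum, had 1.89 and 1.22. Fn1 had -0.46 in both, and Snai2 had -0.38 and -0.16. Cdh1 and Epcam had smaller ratios, 0.19 and 0.30 with DMSO and 0.03 and 0.11 with PMA, as did Zeb2, with 0.15 and -0.03. The median of the genes at the minimum was 0.17 with DMSO and 0.03 with PMA, beside 0.04 and 0.02 for all genes tested. The Vim calls were lost when 1 was added to both values (0.66 and 0.95) and, with DMSO only, when libraries were scaled by the median of ratios, which took its FPKM below 1 (log2 ratio 1.75). Scaling each library to the same FPKM sum moved the median of all genes to 1.01 with DMSO and 1.26 with PMA and turned the negative ratios of Fn1, Snai1 and Snai2, and of Zeb2 with PMA, positive, although they stayed below that median. Cdh1 and Epcam were then called in both, and Snai2 with PMA. Vim, Zeb1 and Zeb2 had ratios past 2-fold in both but no longer reached the minimum.

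The effect of EICD was examined in the sorted SP2bKD cells, with 0.01 added to the value with EICD alone. Of 6 genes at the minimum none rose and Zeb1 fell, against 3.5% of 10038 genes that rose and 0.458% that fell. Its FPKM went from 1.16 to 0.430, an estimated 169 and 66.2 fragments. The log2 ratio was -1.39, with a 95% interval of -1.86 to -1.01 for counting error alone, and 0.169% of the genes tested had a lower ratio. Zeb1 reached the minimum with GFP only, which favours a low ratio, so that rank is not independent support for a fall. Its paralogue Zeb2 had 0.67 and Snai2 had 0.58, above 92.0% and 89.3% of the genes tested. The genes that hold cells together or build matrix stood near 0, with log2 ratios of 0.08 for Cdh1, -0.13 for Epcam and 0.12 for Fn1, and other scalings turned the sign of Cdh1 (-0.01 at the same upper quartile, -0.10 at the same FPKM sum) and of Fn1 (-0.06 at the same sum). Below the minimum, Snai1 had 0.57, Vim -1.02 and Cdh2 -0.33. The median of the 6 genes was 0.10 and that of all genes 0.07. The call of Zeb1 was lost when 1 was added to both values (-0.59) and when each library was scaled to the same FPKM sum, which divided all values and left Zeb1 under an FPKM of 1.

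The GFP library was also set beside the DMSO library of SP2bKD cells. These differ in transfection, sorting, serum deprivation and DMSO at once, and their effects cannot be told apart. The labels do not name the clone of the DMSO library, so the clone may differ as well. Of 8 genes at the minimum Snai1 fell, from 1.25 to 0.569, a log2 ratio of -1.12 with a 95% counting interval of -1.92 to -0.41. None rose, against 3.58% of 10005 genes that fell and 3.47% that rose. Snai1 reached the minimum with DMSO only, which favours a negative ratio among the genes tested. Snai2 went from 11.7 to 23.3, 1.997-fold and just short of a call. The other log2 ratios were -0.90 for Vim, -0.78 for Zeb1, -0.64 for Fn1, -0.45 for Epcam, -0.21 for Zeb2 and 0.07 for Cdh1. The median of the 8 genes was -0.54, beside -0.07 for all genes tested. Scaling by the median of ratios or to the same upper quartile added Snai2 as a gene that rose, scaling to the same FPKM sum called Snai2 in place of Snai1, and adding 1 to both values ended the call of Snai1 (-0.52).

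**Figure D2:**
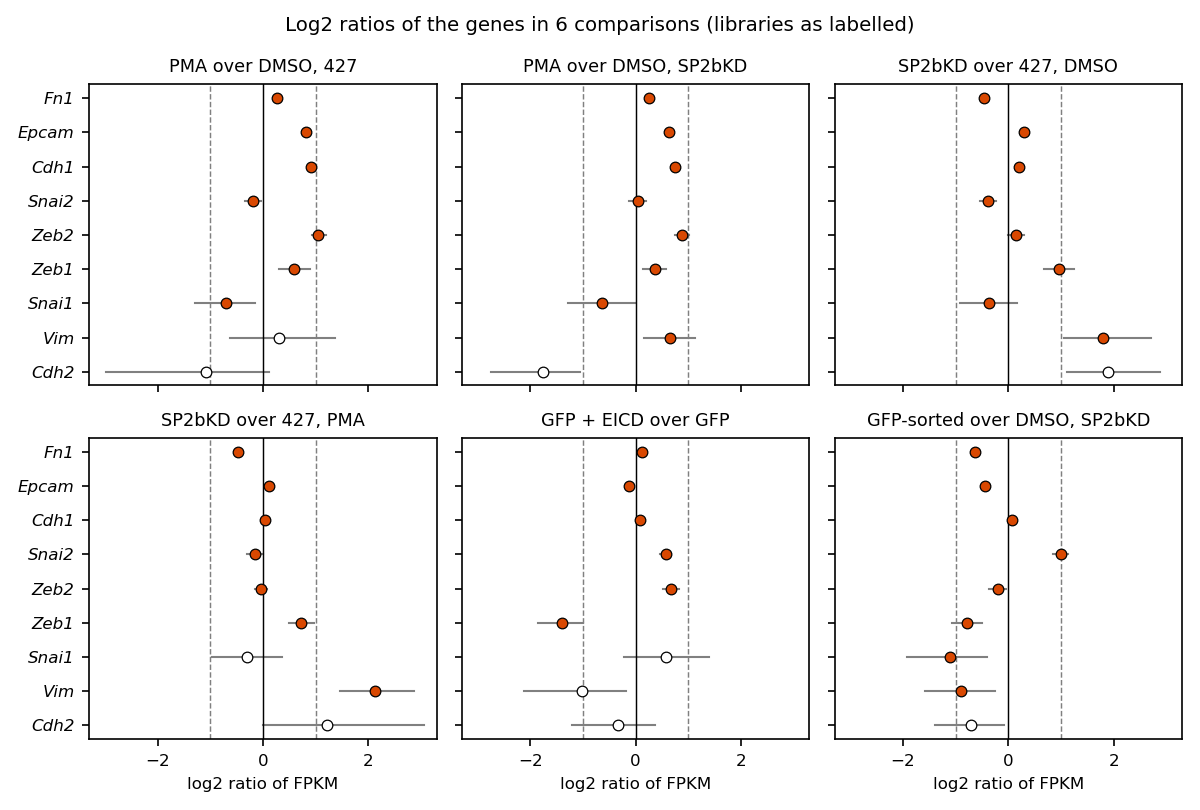
Log2 ratios of FPKM for 9 genes in 6 comparisons, 1 library on each side; filled points reach an FPKM of 1 on either side, open points do not, grey lines are 95% intervals for counting error from estimated fragments, and dashed lines mark 2-fold. Zeb2 lies beyond 2-fold with PMA in 427 cells, Vim in both SP2bKD comparisons, Zeb1 on the negative side with EICD and Snai1 on the negative side in the GFP-sorted cells.

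The balance within each pair of paralogues followed the libraries in different ways. The FPKM ratio of Snai2 to Snai1 was 9.46 and 13.6 in 427 cells with DMSO and PMA, 9.37 and 15.1 in SP2bKD cells with DMSO and PMA, 41.0 with GFP and 41.6 with GFP plus EICD. Snai2 therefore exceeded Snai1 in all 6 libraries, most in the sorted cells, and by nearly the same ratio with and without EICD. The 2 sorted ratios rest on an estimated 23.3 and 35.9 fragments of Snai1. The counting interval of its log2 ratio with EICD was -0.22 to 1.40, so their likeness is imprecise. The ratio of Zeb2 to Zeb1 was 2.65 and 3.66 in 427 cells with DMSO and PMA, 1.504 and 2.15 in SP2bKD cells with DMSO and PMA, 2.24 with GFP and 9.57 with GFP plus EICD. For the ZEB pair it was the GFP plus EICD library that stood apart. Ratios within a library do not depend on how the libraries are scaled. The ratio of Fn1 to Cdh1 went from 4.02 in 427 cells with DMSO to 1.57 in the GFP library, and was 2.58 in 427 cells with PMA, 2.56 and 1.82 in SP2bKD cells with DMSO and PMA, and 1.61 with GFP plus EICD.

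**Figure D3:**
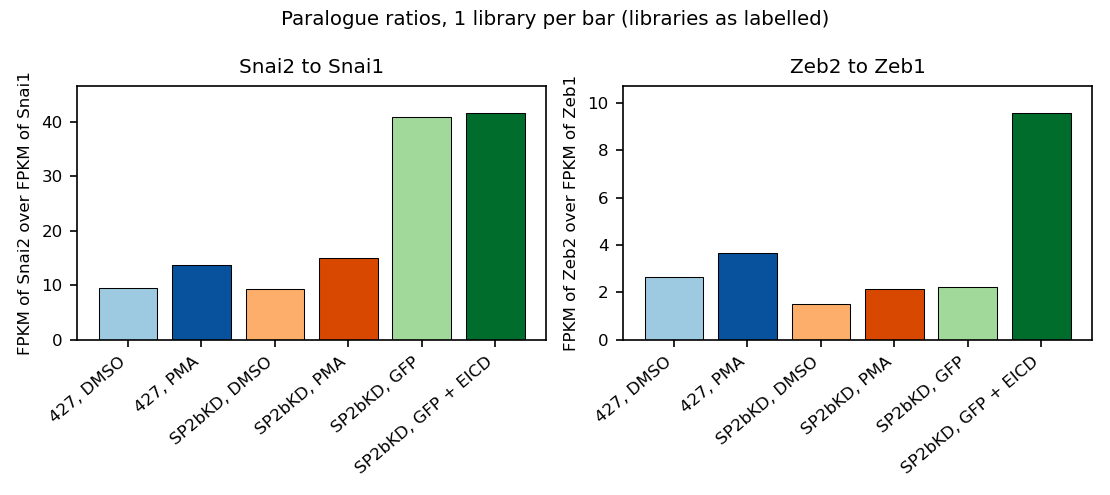
Ratio of FPKM between paralogues in each library, Snai2 to Snai1 on the left and Zeb2 to Zeb1 on the right; each bar is 1 library and both axes start at 0. The Snai2 to Snai1 ratio is 41.0 and 41.6 in the sorted libraries and at most 15.1 in the others, and the Zeb2 to Zeb1 ratio is 9.57 with EICD and at most 3.66 in the others.

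The 10 genes were set beside 7 lists of related genes, described by counts and medians. The list of epithelial junction and polarity genes was largely expressed, with 22 of 26 genes at an FPKM of 1 or more in all 6 libraries, as were 9 of 12 genes of the cadherin-catenin and nectin complex and 10 of 14 epithelial transcription and splicing factors. Of 27 mesenchymal matrix, cytoskeleton and adhesion genes 8 reached it. It was reached by 12 of 16 other EMT transcription factors, by all 16 cofactors and stability factors of Snail and ZEB, and by 13 of 16 genes of the TGF-beta route. The cells thus had RNA of most junction genes and of most EMT transcription factors read, and of fewer mesenchymal genes.

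With PMA 12 of the 97 listed genes tested rose in 427 cells (12.4%) and 5 fell (5.15%), beside 3.79% and 4.61% of all genes. In SP2bKD cells 11 of 98 rose (11.2%) and 6 fell (6.12%), beside 3.4% and 5.52%. The lists were chosen with earlier results of these data known. A share above that of all genes, here or in the comparisons below, is therefore a description and not independent support. The medians of all genes tested, with which those of the lists may be read, were -0.11 and -0.15. The junction genes did not all follow Cdh1 and Epcam. In 427 cells 3 of the 23 tested rose and 1 fell, with a median log2 ratio of 0.13. In SP2bKD cells 3 rose and 2 fell, with a median of -0.01. Among the genes that rose were 2 claudins, which seal tight junctions. Cldn1 rose from 5.62 to 37.2 in 427 and from 5.01 to 22.1 in SP2bKD cells, and Cldn4 from 125 to 553 and from 104 to 320, whereas Cldn3, Cldn6 and Cldn7 stayed under an FPKM of 1. Tjp3, a tight junction scaffold, fell in both (log2 ratios -1.29 and -1.64). Of 9 genes tested in the cadherin-catenin and nectin complex, the nectin Pvrl2 was the 1 that rose, with log2 ratios of 1.26 and 1.07, and none fell. Of 12 epithelial factors Ovol2, a repressor of Zeb1 in epithelia, fell, from 4.75 to 1.90 in 427 and from 5.17 to 1.42 in SP2bKD cells, and Ehf, an epithelial Ets factor, rose in SP2bKD cells (0.910 to 1.87).

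Of 10 mesenchymal genes tested in 427 cells 2 rose and none fell, with a median of 0.35. Cd44, a hyaluronan receptor that epithelial cells also carry, rose from 77.9 to 327, and Tagln, an actin-binding protein of smooth muscle, from 0.854 to 1.79. In SP2bKD cells 1 of 11 rose, Cd44 from 63.7 to 328, with a median of 0.38. Of 13 other EMT factors tested 3 rose and none fell in each line, although the medians were -0.18 and -0.13. They were Fosl1, an AP-1 subunit (4.71 to 73.8 and 1.92 to 49.5), Hmga2, a chromatin protein of embryonic cells (8.35 to 76.4 and 6.43 to 61.2), and Twist2, the paralogue of Twist1 (12.2 to 28.4 and 10.98 to 27.7). Twist2 was therefore expressed where Twist1 was listed at 0. Among 16 cofactors Usp27x, a deubiquitinase of Snail, rose in 427 cells from 12.4 to 36.2, and none passed 2-fold in SP2bKD cells. One gene of this list, Pkd1, is that of polycystin 1 and was entered by its symbol, and its log2 ratios did not pass 2-fold in any comparison.

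In the TGF-beta route 2 of 15 genes rose and 3 fell in each line, with medians of 0.26 and 0.39. Smad6, an inhibitory Smad, fell from 1.71 to 0.165 and from 2.47 to 0.395. Tgfbi, a matrix protein induced by TGF-beta, fell in 427 cells (-1.32) and in SP2bKD cells (8.07 to 3.37), and Smad7, another inhibitory Smad, rose in SP2bKD cells (1.40). Outside the naming rule, and named after their values were seen, Ocln rose in both lines (11.2 to 24.7 and 12.5 to 28.7), Tgfb1 rose and Tgfb3 fell in 427 cells (9.12 to 18.5 and 3.39 to 1.63), and Dsg2 and Tgfbr3 fell in SP2bKD cells (14.3 to 6.80 and 1.40 to 0.673).

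Between the lines 4 of the 98 listed genes tested rose with DMSO (4.08%) and 4 fell (4.08%), beside 2.87% and 2.52% of all genes. With PMA 3 of 96 rose (3.12%) and 1 fell (1.04%), beside 2.02% and 2.51%. The mesenchymal receptor gene Pdgfrb rose like Vim, from 0.445 to 1.52 with DMSO and from 0.488 to 1.99 with PMA, and Prrx1, a homeobox factor of mesenchyme, rose from 32.5 to 83.6 and from 22.9 to 47.2. Sparc, a matrix-binding glycoprotein, rose with DMSO (11.6 to 28.5) and tenascin C (Tnc) fell (81.6 to 39.9), so the mesenchymal list had 2 of 11 genes higher and 1 lower, with a median of -0.08. Ehf fell with DMSO and with PMA (-1.93 and -1.13). Among the remaining genes Usp27x rose (2.13) and Fosl1 and Smad7 fell (-1.29 and -1.15) with DMSO, and Tgfb3 rose with PMA (1.42). No gene of the junction list or of the cadherin-catenin and nectin complex passed 2-fold between the lines, with or without PMA.

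With EICD 2 of the 94 listed genes tested rose (2.13%) and 1 fell (1.06%), beside 3.5% and 0.458% of all genes. Tjp3 rose from 2.62 to 5.82 and Ehf from 1.30 to 2.62, and Usp27x fell from 25.7 to 11.8. No gene of the mesenchymal list (9 tested), of the other EMT factors (12 tested) or of the TGF-beta route (15 tested) passed 2-fold, and their median log2 ratios were 0.03, 0.18 and 0.28, beside 0.07 for all genes. The epithelial factors had a median of 0.35 over 11 genes. In the GFP library, against DMSO, 12 of the 99 listed genes tested rose (12.1%) and 6 fell (6.06%), beside 3.47% and 3.58% of all genes. Among them Pdgfrb fell from 1.52 to 0.0380, Col5a1 from 2.01 to 0.2495 and the collagen cross-linking enzyme gene Lox from 50.0 to 14.4, which made 3 of 12 mesenchymal genes lower and none higher. Scx fell as well (2.69 to 0.620), as did Foxa1 (2.28 to 0.717) and Usp27x (54.5 to 25.7). The epithelial factors Klf4 and Trp63 rose, from 18.04 to 93.9 and from 30.5 to 62.7, as did the desmosome gene Dsp (67.2 to 158), the nectins Pvrl1 and Pvrl4 (log2 ratios 1.34 and 1.38), Sox9 (1.37) and Fosl1 (3.12). In the TGF-beta route Smad7 and Tgfbi rose (1.83 and 1.70). Hmga2 and Twist2, named after their values were seen, rose as well (6.43 to 14.9 and 10.98 to 24.3).

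**Figure D4:**
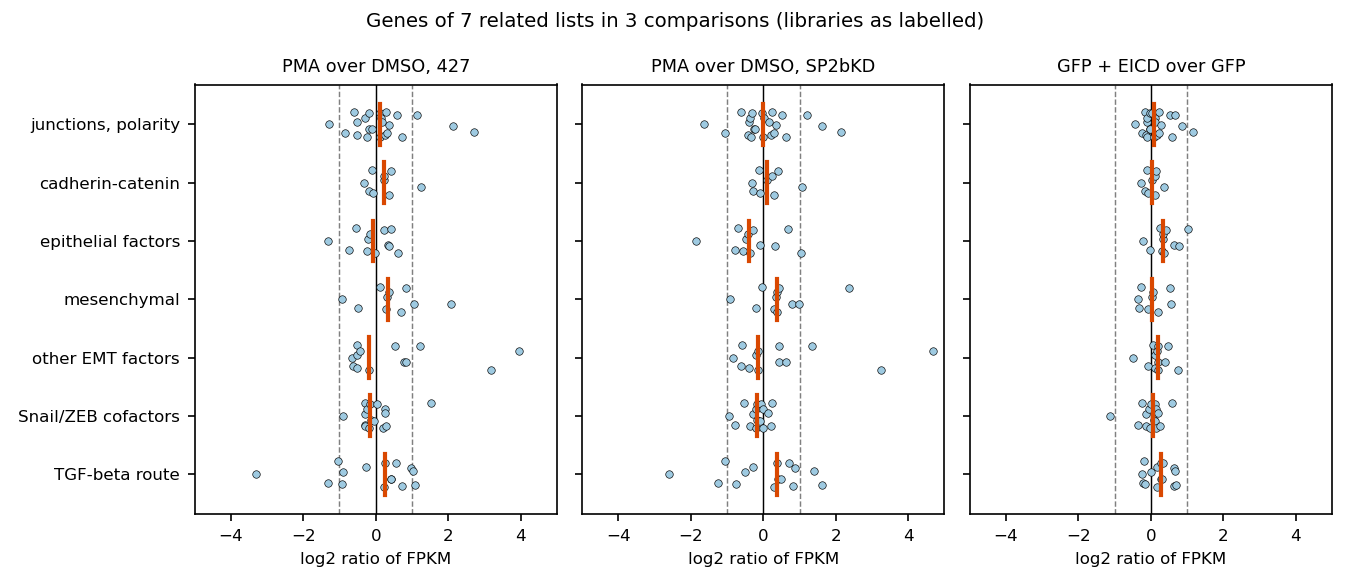
Log2 ratios of FPKM for the genes of 7 lists in 3 comparisons; each point is 1 gene that reaches an FPKM of 1 on either side, the thick bars are list medians and the dashed lines mark 2-fold. With PMA the points reach 3.97 (Fosl1 in 427 cells) and 4.68 (Fosl1 in SP2bKD cells), and with EICD 3 genes lie beyond 2-fold.

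To find which other genes had a similar course, the log2(FPKM + 0.01) profile over the 6 libraries was centred on its mean, and the root mean square difference from the profile of each gene was computed over 10317 loci. This likeness is a description over 6 libraries that share cells and treatments. The nearest profile to that of Vim was the keratin gene Krt8 (difference 0.195), an intermediate filament gene of simple epithelia. Its FPKM was 80.1 and 136 in 427 cells with DMSO and PMA, 311 and 403 in SP2bKD cells with DMSO and PMA, 143 with GFP and 70.2 with GFP plus EICD, so that Krt8 and Vim were both highest in the unsorted SP2bKD libraries, at very different levels. Abcg2, a drug efflux transporter, was the nearest to Zeb1 (0.184) and the second nearest to Vim (0.386). Its FPKM was 0.330 and 0.511 in 427 cells, 0.746 and 1.17 in SP2bKD cells, 0.509 with GFP and 0.173 with GFP plus EICD.

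For Zeb2 the nearest were Parp8 (0.0884), Rasa1 (0.129), a GTPase-activating protein of Ras, and the nectin-like adhesion receptor gene Pvr (0.130). They shared with Zeb2 the higher values in both PMA libraries and the higher value with EICD than with GFP alone. For Snai2 they were Cbarp (0.0938), Chd9 and Hectd2, all highest in the GFP plus EICD library. For Snai1 they were the integrin gene Itgb5 (0.131), Dnajb2 and Fbxo32, all highest in 427 cells with DMSO. For Epcam they were Eps8 (0.0905), Tead1 and Rhpn2, and for Fn1 Bbs12 (0.130), Mars2 and Ccl25. The levels of Cdh1 varied less than 2-fold, 1.92-fold from lowest to highest, and no nearest profile was sought for it.

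**Figure D5:**
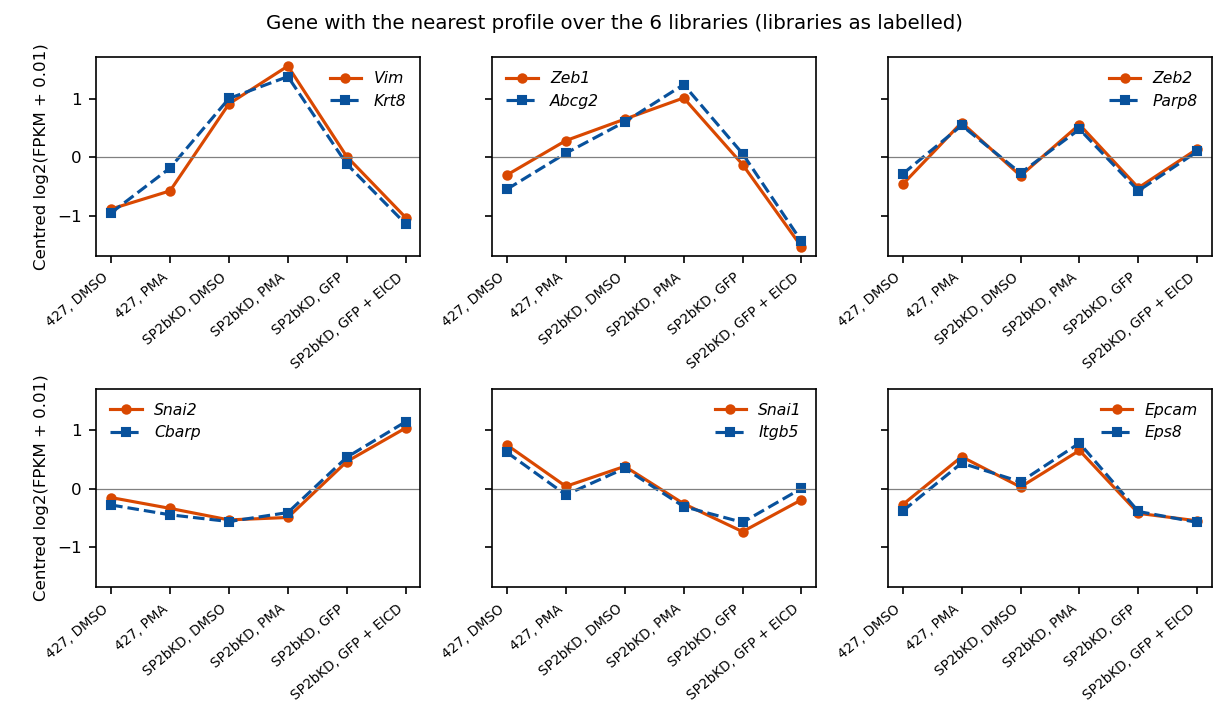
Centred log2(FPKM + 0.01) over the 6 libraries for 6 genes (solid lines) and for the gene with the nearest profile to each (dashed lines); the lines join single libraries and are not a time course. Vim and Krt8 are highest in the unsorted SP2bKD libraries, Zeb1 is lowest with GFP plus EICD, and Zeb2 is high in both PMA libraries.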

How the data were processed

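RNA of 427 cells, 1 library for each of 6 conditions, was enriched for poly(A), made into libraries with a TruSeq kit and sequenced as paired ends. The authors aligned reads with Tophat (v2.1.1), computed FPKM with Cufflinks (v2.1.1), normalized them with Cuffdiff (v2.1.1) and deposited the FPKM of 25001 loci in each library on GRCm38. The processing notes of the submitters also list STAR 2.4.0b. FPKM depends on the gene models, so a locus that overlaps another can hold its reads.

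From the deposited FPKM, log2 ratios were computed with pandas 2.3.3, SciPy 1.17.1 and NumPy 2.4.6 under Python 3.11.15 and drawn in matplotlib 3.10.9. To both libraries 0.01 was added. For EICD it was added to that library only, over loci with at least 0.01 FPKM with GFP. A gene was tested against 2-fold where the higher of both FPKM values was 1 or more. Depth was estimated from the FPKM steps of loci with a single transcript of over 2500 bases and an implied depth inside a preset range. Fragments per gene took the longest coding transcript and are upper estimates at that depth. Clopper-Pearson intervals from them cover counting error only and hold for that depth. Scripts were tested on simulated data. The rule for named genes took all 10 genes, up to 3 called genes with the largest ratios per list and comparison, and the 3 nearest profiles of each gene that reached an FPKM of 1 and varied 2-fold or more. The genes and lists were chosen with earlier results of these data known. Promoter sequences came from RefSeq (GRCm38.p6), and overlaps from GENCODE. Listed genes without a row were not analysed here, and 1 single-gene result under the naming rule is not reported here. Alternatives were other added constants, minima, scalings and fold thresholds, and the sum of rows per symbol.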

Additional observations from a re-analysis of the deposited data

Results flagged for a closer look

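Snai2 had log2 ratios of opposite sign with PMA in the cell lines, -0.18 in 427 cells (15.2 to 13.4 FPKM) and 0.04 in the cells labelled SP2bKD (11.7 to 12.0 FPKM). The difference, SP2bKD minus 427, was 0.23 on the log2 scale. With 1 library per condition it was not tested, and both ratios lie far inside 2-fold. For the other 8 genes with values the sign was the same in both lines.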

How the results depend on the processing

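No paired analysis was possible because each condition had 1 library, and for the same reason no replicate could be left out. The number of the 10 genes past 2-fold rested on few genes and moved with the settings, in the order PMA in 427 cells, PMA in SP2bKD cells, SP2bKD against 427 cells with DMSO and with PMA, EICD, and GFP-sorted cells. Against 1, 0, 1, 1, 1 and 1 genes as reported, no minimum FPKM gave 2, 1, 2, 2, 2 and 1, the gene added being Cdh2 in the first 4 and Vim with EICD. A threshold of 1.5-fold gave 5, 5, 2, 2, 2 and 5. Adding 1 to both libraries or a minimum of 10 gave 0 throughout, since the called genes had an FPKM under 6. Scaling by the median of ratios gave 2, 0, 0, 1, 1 and 2, scaling to the same upper quartile gave 2 for the sorted cells and the reported count elsewhere, and scaling to the same FPKM sum gave 0, 0, 2, 3, 0 and 1. That last scaling also left 3 in place of 5 genes at an FPKM of 1 or more in all libraries. Adding 0.001 or 0.1, or summing rows, left all 6 counts as reported. Of 432 single-gene ratios under alternatives, 360 lay inside the counting interval of the reported ratio. Among these are the ratios under other minima, which equal the reported ones by construction. The other sign was found in 10, none of them a ratio called as reported. Of the 10, Snai2 between the lines with PMA passed 2-fold and was called at the same FPKM sum (-0.16 as reported, 1.08 then). Zeb2 in that comparison passed 2-fold as well (-0.03 as reported, 1.19 then), but no longer reached the minimum FPKM. Adding 1 to both libraries lowered the listed genes past 2-fold from 8 to 5 between the lines with DMSO and from 3 to 1 with EICD. Of all calls with PMA, 45.1% in 427 and 38.1% in SP2bKD cells were increases, and 54.8% and 53.1% after scaling by the median of ratios. For the lines the share was 53.2% with DMSO and 44.5% with PMA, and 99.7% and 99.8% after scaling to the FPKM sum. For EICD it was 88.4% and 71.6%. The depth estimate moved by less than 1.5 times when only transcripts over 4000 bases were used. Both estimates kept only loci whose implied depth lay in the same preset range. The alternative therefore could not move the estimate far, and it is no check of the depth itself. Depth limits Cdh2, Vim and Snai1 most, and 1 library per condition limits every ratio.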
